A study of Mus musculus with 12 samples.

Results

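Peg3 and Zim1 are neighbouring imprinted zinc finger genes on mouse chromosome 7, and both of these 2 genes stand among the 546 genes of the authors' co-culture table. They were taken by gene identifier, ENSMUSG00000002265 for Peg3 and ENSMUSG00000002266 for Zim1, out of 1113 genes in the 2 deposited expression tables. The choice was made with their values in the co-culture experiment known, so these values are given as a description, with no test of either gene in that experiment. RNA-seq of poly(A) RNA was run on aggregates of 129w2, a mouse embryonic stem cell line, in 2 experiments of 2 groups with 3 libraries per group. All aggregates were started on day 0 with 3000 cells per well and received BMP4 (2 ng/ml) on day 3, then retinoic acid (1 µM) together with basic FGF (25 ng/ml) on day 4, and moved to new plates on day 5. The first experiment compared aggregates kept from day 5 to day 7 in co-culture with mSMGs (the labels leave this abbreviation unexplained) with aggregates at day 7. The second compared aggregates given a cocktail of factors, whose composition is unknown here, with other aggregates at day 7; the labels give no day of collection for the cocktail group. All groups come from the same cell line, and no label says whether replicates were separate cultures.

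Imprinted genes are transcribed mainly from the copy inherited from one parent, and many of them act on growth, placenta and behaviour. Peg3 encodes a large nuclear protein with Krüppel-type zinc fingers, is transcribed from the paternal copy, and marks stem and progenitor cells of several adult tissues. Zim1 encodes another Krüppel-type zinc finger protein and is transcribed mainly from the maternal copy. The shared control element of the domain lies at the start of Peg3, which is also the start of the divergent paternal gene Usp29, and is methylated on the maternal copy. The values here are sums over both copies and say nothing on parental origin. Whether the genes called imprinted below were so in these aggregates was not tested.

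In GENCODE M21 (GRCm38, the build named in the submitters' processing notes), Peg3 spans bases 6703892 to 6730431 of chromosome 7, on the minus strand. Zim1 lies at 6671269 to 6696450 on the same strand, so that Zim1 starts 7.44 kb beyond the end of Peg3. The longest annotated Peg3 transcript has 9 exons and 8694 bases, and that of Zim1 has 8 exons and 7693 bases. The divergent Usp29 starts 147 bases from the start of Peg3 on the plus strand. The antisense RNA Peg3os lies inside Peg3 (chromosome 7, 6706760 to 6707624 in RefSeq, GRCm38.p6). The labels do not say that strand was kept in counting, so reads from Peg3 and Peg3os cannot be told apart. All 546 genes of the co-culture table are annotated as protein-coding. Of 162 annotated protein-coding genes overlapping the window of 5 Mb on either side of Peg3, Peg3 and Zim1 are the 2 in that table and 0 are in the cocktail list.

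**Figure D1:**
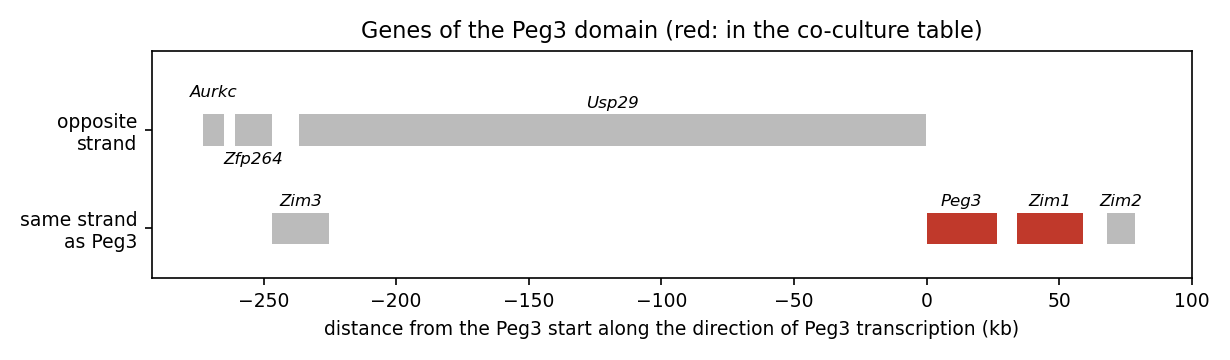
Genes of the imprinted domain around Peg3 with the neighbouring Aurkc, by strand (vertical axis) and by distance in kb from the Peg3 start along the direction of Peg3 transcription (horizontal axis); predicted and small non-coding genes are not drawn. The 2 genes in the co-culture table, in red, follow each other on 1 strand, and Usp29 starts 147 bases from Peg3 in the other direction.

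The promoter windows of both genes are shown as background, since the 2 neighbours start from separate sites. Any part of these windows in the values across libraries was not tested. They run from 250 bases before to 50 bases after the RefSeq start (GRCm38.p6, minus strand, 5′ to 3′), at chr7:6730370-6730669 for Peg3 and chr7:6696383-6696682 for Zim1. Capitals mark matches, on either strand, to the cyclic AMP response element (CRE, TGACGTCA) and the CCAAT box (CCAAT, or ATTGG on the other strand).

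Peg3: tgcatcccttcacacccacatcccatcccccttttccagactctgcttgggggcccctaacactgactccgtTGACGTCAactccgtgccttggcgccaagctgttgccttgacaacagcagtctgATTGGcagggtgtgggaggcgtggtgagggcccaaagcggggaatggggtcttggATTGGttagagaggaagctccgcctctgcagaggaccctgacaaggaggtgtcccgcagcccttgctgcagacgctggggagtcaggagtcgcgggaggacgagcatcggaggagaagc

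Zim1: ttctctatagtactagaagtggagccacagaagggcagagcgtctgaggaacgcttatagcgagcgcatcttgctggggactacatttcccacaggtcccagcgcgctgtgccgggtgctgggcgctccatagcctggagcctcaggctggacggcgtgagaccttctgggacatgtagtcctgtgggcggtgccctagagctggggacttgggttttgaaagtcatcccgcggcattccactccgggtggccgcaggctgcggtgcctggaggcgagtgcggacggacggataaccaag

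The Peg3 window holds 1 CRE, at bases 73 to 80 from its 5′ end, and 2 CCAAT boxes on the reverse strand, at bases 127 to 131 and 182 to 186. A CRE is present in 1.79% of 32817 RefSeq promoter windows of the same length and a CCAAT box in 37.4%, with 2 or more in 11.7%. Neither motif occurs in the Zim1 window. The site of the zinc finger factor YY1, searched as GCCATNTT (6.04% of windows), matched neither window. The Peg3 window has 13 CpG and the Zim1 window 20, with observed-to-expected CpG ratios of 0.463 and 0.717. The Peg3 window shares 263 bases with that of Usp29. These matches describe letters only and show no binding.

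The co-culture question was how aggregates differed after growth with mSMGs. The values are FPKM, a fragment number divided by transcript length and by library size; the header of this table names no unit and FPKM was inferred. Over the 425 genes with a mean of at least 1 FPKM in either group, co-culture library 3 was more like the controls than like the other co-culture libraries. Its Pearson r of log2(FPKM + 1), across genes, which are not independent, was 0.934, 0.931 and 0.960 with controls 1, 2 and 3, and 0.835 and 0.685 with co-culture 1 and 2. The controls correlated at 0.910 to 0.945 with each other, and co-culture 2 was the least like them (0.609 to 0.655). The Peg3 and Zim1 differences are therefore also given without co-culture 3. It was singled out on values of these same genes, so larger differences without it are partly built in.

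By mean FPKM in the controls, Peg3 ranked 15 and Zim1 367 among the 546 genes of the table. Peg3 was at 93.4, 48.9 and 103.8 FPKM in control libraries 1, 2 and 3, and at 212.4, 150.2 and 87.3 in co-culture libraries 1, 2 and 3. Co-culture libraries 1 and 2 were above every control, whereas co-culture library 3 was below controls 1 and 3, so the groups overlapped. The control mean was 82.0 ± 29.2 FPKM and the co-culture mean 149.9 ± 62.5 (SD, n = 3 each), a 1.83-fold difference. On the log2(FPKM + 1) scale the co-culture mean was 0.84 higher, where the median over the 425 genes fitted was 0.83. That closeness belongs to this scale. The median was 1.23 with a pseudocount of 0.1 and 0.35 with 5, whereas Peg3 was at 0.85 and 0.81. On the log2(FPKM + 1) scale the Peg3 difference was 0.51 without control 2 and 0.55 without co-culture 1. It was 1.18 without co-culture 3 and 1.39 without both libraries numbered 3. In bulk aggregates, more cells that express a gene and more RNA per cell cannot be told apart.

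Zim1 was at 0.470, 0.385 and 0.787 FPKM in controls 1, 2 and 3, and at 2.16, 3.25 and 1.34 in co-culture 1, 2 and 3. Every co-culture library was above every control, including co-culture library 3, in which Peg3 was below its same-numbered control. The control mean was 0.547 ± 0.212 FPKM and that of co-culture 2.25 ± 0.956 (SD, n = 3 each), a 4.11-fold difference. Zim1 passed the filter for the fit (a mean of at least 1 FPKM in either group) only through the co-culture libraries. The difference of the means was 1.04 on the log2(FPKM + 1) scale, which understates the change of a gene this low, and 1.83 with a pseudocount of 0.1. Without co-culture 3 it was 1.25. The number of reads behind these low Zim1 values is not known from this table, which limits how finely they can be read.

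**Figure D2:**
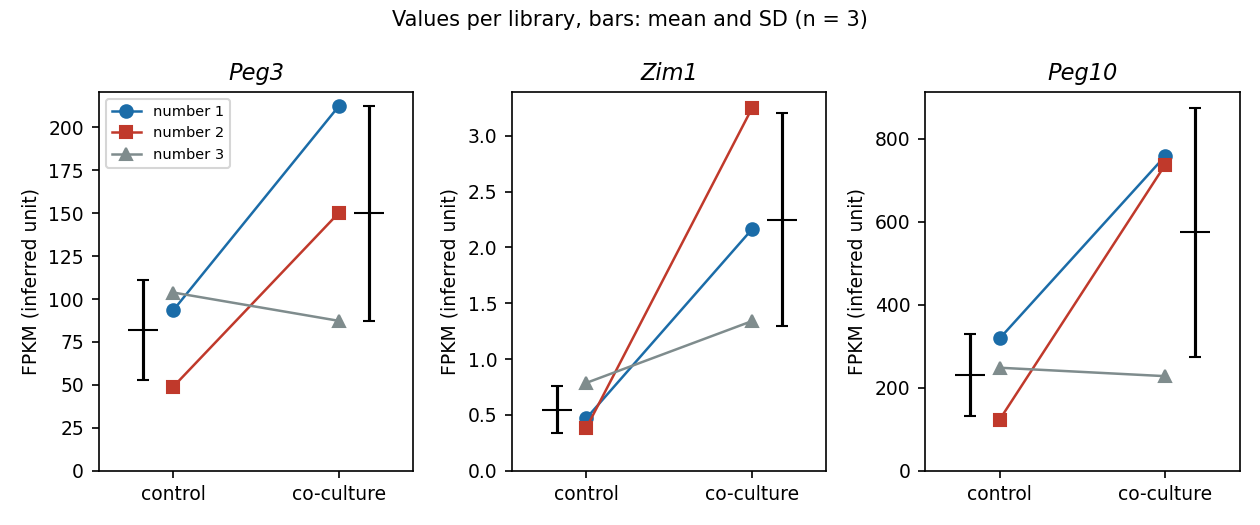
FPKM (inferred unit, vertical axis, from 0) of Peg3, Zim1 and Peg10 in each control and co-culture library; lines join libraries with the same number, and black bars give the mean and SD (n = 3). Zim1 is higher with co-culture for all 3 numbers, and Peg3 and Peg10 are higher for numbers 1 and 2 and lower for number 3.

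Compared by library number, both genes were higher with co-culture in pairs 1 and 2, and in pair 3 Peg3 was lower and Zim1 higher. The Zim1 fold was above the Peg3 fold in every pair, so only the direction of Peg3 sets pair 3 apart. Peg3 in co-culture over control was 2.27-fold in pair 1, 3.07-fold in pair 2 and 0.841-fold in pair 3. For Zim1 the same folds were 4.60, 8.44 and 1.70. The median folds over the 516 genes above 0 in every library were 2.50, 3.74 and 1.31, so that Peg3 lay below and Zim1 above the median gene in each pair. Most genes of the table were at least 2-fold higher in pairs 1 and 2 (390 of 546, 71.4%), as these genes were, and 109 were at least 2-fold lower in both, so those pairs do not set the 2 genes apart. Of those 390 genes, 79 were, like Peg3, not higher in pair 3, and 311 were, like Zim1, higher there. Higher values in all 3 pairs, as in Zim1, were found in 59% of the table, and no overlap between the groups with co-culture higher in 30.2%. Zim1 thus belongs with a large share of the table, and nothing is read from its membership.

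The level of Peg3 relative to Zim1 was lower in each co-culture library than in each control. Both genes are on a per-length scale, and a ratio within a library does not depend on that library's scaling. The ratio of Peg3 to Zim1 FPKM was 198.6, 127.0 and 131.9 in controls 1, 2 and 3, and 98.2, 46.2 and 65.2 in co-culture 1, 2 and 3. On the log2 scale its mean was 7.22 ± 0.36 for controls and 6.06 ± 0.54 for co-culture (SD, n = 3 each), which is 1.16 log2 units apart (co-culture minus control, -1.16). The groups did not overlap in this ratio, but it rests on Zim1 values below 1 FPKM in the controls. With a pseudocount of 1 added to both genes the difference was -0.19, and with 5 it was 0.43, the other direction. The Zim1 folds lay above the upper quartile of the 516 genes in pairs 1 and 2 (3.33 and 7.18) and above their median in pair 3. Most of those genes therefore fell relative to Zim1 in each pair, so a lower ratio is not particular to Peg3. Other ratios without overlap were not counted.

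**Figure D3:**
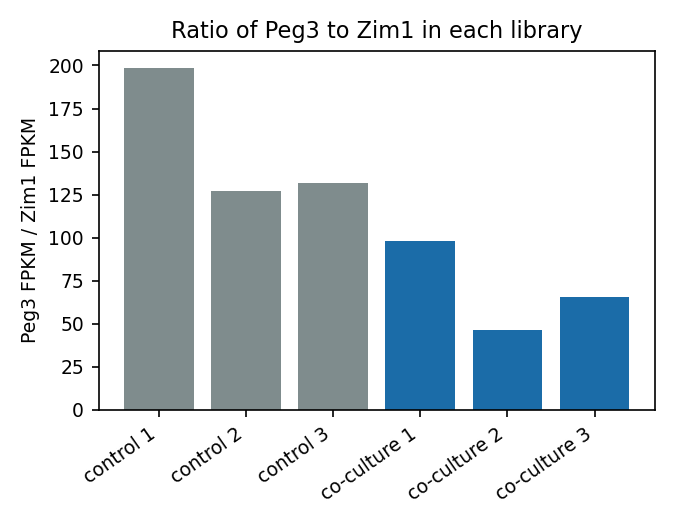
Ratio of Peg3 FPKM to Zim1 FPKM (vertical axis, from 0) in each library, controls in grey and co-culture in blue. The controls lie between 127.0 and 198.6 and the co-culture libraries between 46.2 and 98.2.

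Among marker genes of other cell types in the table, Krt19 was higher with co-culture without overlap, as were 30.2% of the table's genes. The summed endothelial markers, the summed neural progenitor markers and Col3a1 overlapped between the groups. Of 9 salivary epithelial markers the table holds Krt19, a keratin of simple epithelium, at 6.22 to 6.70 FPKM in the controls and 11.2 to 154.3 with co-culture. Kdr, Tek and Flt1, receptors of endothelium and 3 of 5 endothelial markers, summed to 0.792 to 3.89 FPKM in the controls and 1.65 to 42.1 with co-culture. Of 5 neural progenitor markers, Fabp7 and Hes5 summed to 154.6 to 273.6 in the controls and to 49.8, 25.8 and 269.2 in co-culture 1, 2 and 3. Of 7 mesenchymal markers the table holds Col3a1, at 0.0782 to 0.302 FPKM in the controls and 0.0298 to 1.49 with co-culture. Co-culture 3 was within the control range for the endothelial and neural sums and below it for Col3a1. None of these listed markers was at 0 in any library, and 0 of 4 pluripotency and 0 of 5 surface ectoderm markers were in the table. The part of such cells, or of RNA from the mSMGs, in the Peg3 and Zim1 values was not tested.

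Zim1 was not among the genes whose pattern was most like that of Peg3. Likeness was measured as Pearson's r of log2(FPKM + 1) over the 6 libraries, which share the group difference, and is given as a description. Only genes with a mean of at least 1 FPKM in either group were compared. Lox, Grhl3, Alox5 and Ugt8a, named below, passed only through co-culture, as Zim1 did (control means 0.411, 0.651, 0.292 and 0.508 FPKM). Among low genes this filter favours those higher with co-culture, so part of their likeness comes from it. For Peg3, r with Zim1 was 0.79, rank 75 of 424 genes, where the median gene was at 0.61. From the side of Zim1 the same r of 0.79 ranked 219 of 424, just below the median of 0.80. The 5 genes most like Peg3 were Cacna1h, a T-type calcium channel subunit (r = 0.99), Lox, a lysyl oxidase that cross-links collagen (0.98), Grhl3, a transcription factor of surface ectoderm (0.98), Rictor, a subunit of the mTORC2 kinase complex (0.97), and Loxl2, a lysyl oxidase relative (0.97). Cacna1h was at 2.70, 1.51 and 3.30 FPKM in controls 1, 2 and 3 and at 6.09, 4.82 and 3.14 in co-culture 1, 2 and 3. It shared with Peg3 the low control 2, the high co-culture 1 and a co-culture 3 just under control 3. The 5 genes most like Zim1 were Alox5, a lipoxygenase of leukotriene synthesis (r = 0.996), Ugt8a, an enzyme of galactosylceramide synthesis (0.98), Cers4, a ceramide synthase (0.98), Rnd3 (0.98), and Ap1s2, a subunit of the AP-1 clathrin adaptor (0.98). Alox5 had control values of 0.220, 0.192 and 0.463 FPKM and co-culture values of 1.26, 2.17 and 0.918, so that, as for Zim1, its co-culture 2 was the highest library.

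Besides Zim1, the only imprinted genes that passed the filter for comparison with Peg3 were Osbpl5 and Peg10. By likeness to Peg3, Osbpl5 ranked 241 of 424 (r = 0.55) and Peg10 ranked 7 (r = 0.96). Peg10, a paternally expressed gene derived from a retrotransposon and needed for the placenta, lies on chromosome 6 at 4747306 to 4760517. It was at 318.6, 123.2 and 248.0 FPKM in controls 1, 2 and 3 and at 758.3, 737.3 and 227.7 in co-culture 1, 2 and 3. Peg10, like Peg3, was above every control in co-culture 1 and 2 and under control 3 in co-culture 3. Its mean log2(FPKM + 1) difference was 1.23, and its r with Zim1 was 0.85.

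Of 79 genes in a list of imprinted genes, 6 stood in the co-culture table: Peg3, Zim1, Peg10, Calcr, Osbpl5 and Th. Calcr, the calcitonin receptor gene, neighbours the Peg10 cluster on chromosome 6 and was at 0.137, 0.0433 and 0.132 FPKM in controls 1, 2 and 3 against 0.427, 0.345 and 0.194 with co-culture. Like Zim1, it was low and did not overlap between groups. Osbpl5, which encodes an oxysterol-binding protein relative and lies near the far end of chromosome 7, had control values of 6.98, 6.58 and 2.19 FPKM and co-culture values of 15.0, 15.4 and 4.88, higher in all 3 pairs with overlapping groups. Th, the enzyme gene for the first step of catecholamine synthesis, had control values of 0.686, 0.624 and 0.0862 FPKM and co-culture values of 0.218, 0.0489 and 0.0564, the one imprinted gene lower in all 3 pairs. Thus 5 of 6 were at least 2-fold higher in pairs 1 and 2, against 71.4% of the table, and 2 of 6 (Zim1 and Calcr) were higher without overlap, against 30.2%. With 6 genes, such counts say nothing particular to imprinted genes.

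Calcr and Th were below the filter, so 4 imprinted genes entered the fit; for Peg3 and Zim1, chosen on this contrast, no test is given. The log2 difference was 1.23 for Peg10 and 1.00 for Osbpl5, against a median of 0.83 over all 425 genes. Over the 216 genes with a mean of at least 5 FPKM in either group, the median was 1.13. In limma's test their adjusted p was 0.209 and 0.223, and 0 of 425 genes passed at 0.05 (0%), while the unadjusted p was under 0.05 for 86. When the fit held the replicate number as a block, 39 of 425 genes passed (9.18%; 38 of them higher, 8.94%), and the limma adjusted p was 0.0879 for Peg10 and 0.150 for Osbpl5. Without co-culture 3, 330 of 449 genes passed (73.5%), Peg10 and Osbpl5 among them, both higher. That library was singled out for its likeness to the controls over these same genes, so more passes without it are partly built in. The rule by which the authors chose the listed genes is unknown here, so these counts are no independent evidence of direction. None of 18 imprint regulators and PEG3 partners (among them Trim28, Zfp57, Yy1, Dnmt1, Siah1a and Trp53) was in either table.

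**Figure D4:**
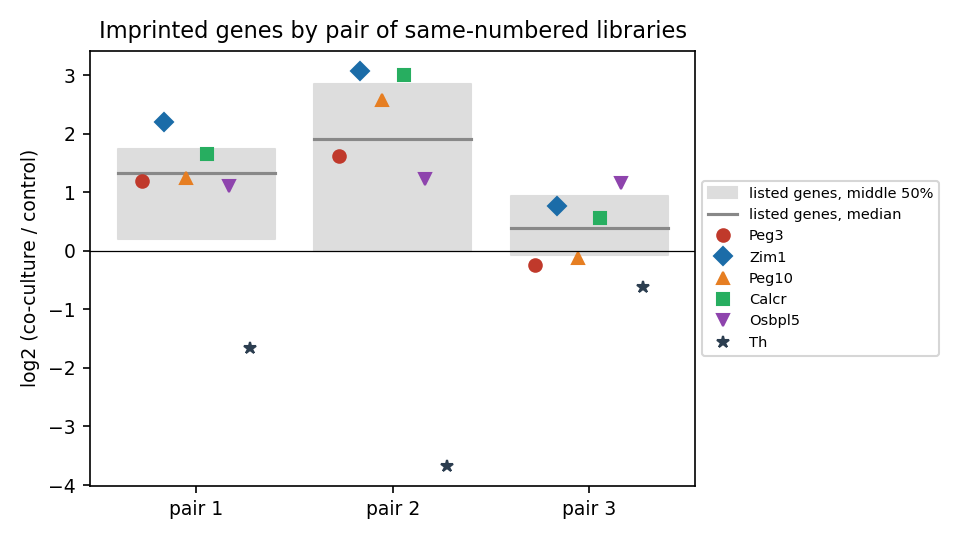
Log2 ratio of co-culture to control FPKM (vertical axis) in each pair of same-numbered libraries for 6 imprinted genes, with the median and middle 50% of the 516 listed genes above 0 in every library in grey. Peg3 lies below the grey median in every pair and under 0 in pair 3, and Zim1 lies above the grey median in every pair.

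The cocktail question was what the mixture of factors changed. Neither Peg3 nor Zim1 is in the cocktail list of 633 genes, so their values with the cocktail were not analysed here. In the authors' deposited table the FDR reaches up to 0.0099 and the log2 fold change is never smaller in size than 1.00, so no statement on smaller changes of these genes can be made from it. The list does hold 6 other imprinted genes: Grb10, Igf2, Osbpl5, Atp10a, Dio3 and Rtl1. All 530 genes that passed the filter also passed limma's test here (100%, of which 59.2% higher and 40.8% lower), as a list of changed genes would, and nothing is read from the passes. Of the 5 imprinted genes tested, 3 were lower and 2 higher, with a median log2 difference of -0.95 against 0.79 over all genes tested. With no filter on low values, which adds Rtl1, 3 of the 6 were lower and 3 higher. So few genes say nothing particular to imprinted genes. Grb10, an adaptor that restrains insulin and IGF receptor signalling, was at 3.72 to 4.62 FPKM in the controls and 0.629 to 0.825 with the cocktail. It fell by 1.58 on the log2(FPKM + 1) scale (± 0.11 SE). No p-value is given for genes of this list, since it was chosen on the same contrast. Igf2, the growth factor gene, fell from 6.31 ± 0.536 to 2.32 ± 0.563 FPKM (SD, n = 3 each). Dio3, a deiodinase that inactivates thyroid hormone, was at 0 to 0.0540 FPKM in the controls and 0.835 to 2.35 with the cocktail. Atp10a, a phospholipid-transporting ATPase gene, rose from 0.746 ± 0.148 to 2.02 ± 0.381. Rtl1, derived from a retrotransposon, stayed below 1 FPKM and was not tested, at 0.0597 to 0.0933 in the controls and 0.236 to 0.314 with the cocktail.

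Osbpl5 is the 1 imprinted gene in both tables. It fell with the cocktail, from 13.2 ± 1.09 to 6.43 ± 1.47 FPKM (SD, n = 3 each), and every cocktail library was below every control. The difference was -0.95 ± 0.14 SE on the log2(FPKM + 1) scale, in a list chosen for changes with the cocktail. In co-culture it was higher in all 3 pairs and did not pass with all 6 libraries. The 2 experiments were scaled separately, and the difference between these changes was not tested.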

How the data were processed

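Per the submitters' processing notes, reads were processed with HISAT2 and the build GRCm38; no version, quantifier or annotation is named in the sources used here. The co-culture table deposited by the authors has 1 value per library for 546 genes and no unit in its header. FPKM was inferred for these deposited values from their decimals, their unequal totals and their likeness to the FPKM of the cocktail table (66 genes in both, r = 0.83 between log2 control means, across genes). The cocktail table gives FPKM, and the authors' FDR (an adjusted p-value) and log2 fold change, per the file headers; 1 row without a gene identifier was left out. Its columns name only the arm and were used as unnumbered replicates. In all, 12 columns of per-sample values were not used: counts that repeat these arms, and columns named by numbers. No library totals were used, so depth is unknown for the co-culture libraries and the 3 libraries per group limit the precision.

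Symbols came from GENCODE M21 (546 of 546 and 594 of 633 identifiers matched). Each experiment was fitted alone in R 4.3.3 by limma 3.58.1 (log2(FPKM + 1), intensity trend), keeping genes whose mean reached 1 in one group or both, Benjamini-Hochberg adjusted, threshold 0.05. The fit was tested on simulated data. P-values measure only the spread between libraries, which may be technical. Same-numbered co-culture and control libraries deviated together (r of deviations from group means 0.606, 0.143 and 0.256, against at most 0.0419 for other combinations). By a rule of 0.1 in every pair, the numbers were treated as pairs, over genes that the authors chose by a rule not given in the sources used here. Deviations within a group sum to 0, so positive values for same numbers push the other combinations down. The contrast between them is thus partly built in, and the pairing remains an assumption. Peg3 and Zim1, the gene lists and the alternatives were chosen with earlier results of these data known. Other genes named are those of the imprinted list, and for each of the 2 genes the 5 highest correlations. Promoter windows are from RefSeq (GRCm38.p6), in which both genes matched.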

Additional observations from a re-analysis of the deposited data

How the results depend on the processing

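The Peg3 difference (0.84 on the log2 scale, co-culture minus control) kept its direction in all 11 alternatives, from 0.51 to 1.18 with 1 library left out, and was 0.84 with the replicate block, 0.55 with quantile normalization and 1.39 without both libraries numbered 3. The Zim1 difference (1.04) also kept its direction, from 0.82 to 1.25 with 1 library left out, and was 1.04 with the block, but moved with a pseudocount of 0.1 (1.83) or 5 (0.38) and with quantile normalization (0.54), which also lowered the median of all fitted genes from 0.83 to 0.24. The Peg3 to Zim1 log2 ratio (-1.16, and -1.16 with the block) ranged from -1.44 to -0.90 with 1 library left out, was -0.48 with quantile normalization and -0.19 with a pseudocount of 1, a setting chosen after seeing the data, and reversed to 0.43 with a pseudocount of 5. Between pseudocounts of 0.1 and 5 the Peg3 difference went from 0.85 to 0.81. Co-culture genes called by limma numbered 0, with 39 under the replicate block, 2 without both libraries numbered 3, and 0 to 330 with 1 library left out (330 without co-culture 3, 1 without control 1); the cause was not tested. Imprinted genes called numbered 0 of 4, 0 with the block, and 0 to 3 with 1 library left out. The 3 came without co-culture 3, where 73.5% of all genes fitted passed. The genes fitted include Peg3 and Zim1, which were chosen on this contrast, so these counts are no test of either. For the cocktail, called genes numbered 526 to 532 and imprinted genes 5 to 5 with 1 library left out; with a minimum mean of 5 they numbered 252 and 2, as fewer genes were tested. The count test planned for the cocktail was not run, since its count columns were not used. Settings for Peg3 and Zim1 with the cocktail were not run, as neither is in that list. The unknown read numbers limit the low Zim1, Calcr and Th values.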

Other observations

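Peg3 and Zim1 are 1 of 21 couples of genes in the co-culture table that follow each other along a chromosome with no other protein-coding gene starting between them (GENCODE M21). In 11 of these couples both genes had a higher mean with co-culture, in 2 both had a lower mean, and in 8 the means lay in opposite directions. Most of the table was higher with co-culture (71.4% of 546 genes at least 2-fold higher in pairs 1 and 2). Couples with both genes higher would thus be frequent in any case, and nothing is read from the 11. The 11 include Stat5a with Stat3 and Stat3 with Cavin1 on chromosome 11, Acta2 with Fas on chromosome 19, and Tnfrsf23 with the imprinted Osbpl5, 2.89 kb apart, on chromosome 7. The 8 include 3 couples of Wnt genes: Wnt3a with Wnt9a, Wnt9b with Wnt3, and Wnt10b with Wnt1. These couples were found after their values were seen, and no test was made of whether neighbours share a direction more often than other genes.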
